A study of Homo sapiens with 6 samples.

Results

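RUNX1 binding sites were compared between ME-1 cells given AI-10-49 and ME-1 cells given the solvent DMSO. The sites were the intervals that the peak caller MACS2 had listed for the RUNX1 antibody, 1 list a condition. The DMSO list held 1701 sites and the AI-10-49 list 10319, together 12020 of the 145457 intervals in the 4 deposited lists of the series. The other intervals belonged to acetylated lysine 27 of histone H3 (H3K27ac), a mark of active promoters and enhancers. All sites of both RUNX1 lists were used. ME-1 is a human leukaemia cell line that carries inv(16), and both groups carried it. One group received AI-10-49 at 1 µM and the other DMSO, each for 6 h. Each condition had 1 RUNX1 library, so that no test between conditions was possible. The 95% intervals given with shares of sites are exact Clopper-Pearson intervals. They cover counting error over sites of 2 libraries, and not the spread between cultures.

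RUNX1 is a transcription factor of blood cell development that holds DNA through its Runt domain and binds far more firmly when it is joined to its partner CBFβ. The inv(16) rearrangement joins the gene of CBFβ, CBFB, to MYH11, the gene of smooth muscle myosin heavy chain, and the fusion protein CBFβ-SMMHC competes for RUNX1. AI-10-49 was made to block the contact between the fusion protein and RUNX1. The comparison asks where RUNX1 was bound after the compound relative to DMSO. In a peak list each site has an interval, and within it a summit, the base with the highest pile-up of extended reads. The position of the summit, the width of the interval and the distance to other sites are the quantities described here.

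Both libraries were of like depth, with 33.8 M (mega) reads in DMSO and 31.5 M reads in AI-10-49, as recovered from the deposited values. The shortest interval, which is set by the length to which reads are extended, was 149 bp in DMSO and 169 bp in AI-10-49, a ratio of 1.13. The lists reached to a lowest −log10 p of 4.98 in DMSO and 4.24 in AI-10-49. The median local background at a site was 0.154 fragments per M reads of the smaller library in DMSO and 0.116 in AI-10-49, and over the sites found in both lists 0.158 and 0.145. These differences moved with the condition, and their part in the differences of width, height and number below was not tested. Whether the sites hold the RUNX sequence motif was not analysed here, so that the label of the antibody was not checked against sequence. Heights are given as summit fragments, the number of extended reads over the summit, and as summit fragments per M reads of the library.

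Most RUNX1 sites of DMSO-treated cells were found again after AI-10-49, and most sites after AI-10-49 had no counterpart in DMSO. Of the 1701 DMSO sites, 1551 overlapped an AI-10-49 site by at least 1 bp, or 91.2%. Read from the other list, 1536 of the 10319 AI-10-49 sites overlapped a DMSO site, or 14.9%. The lists left 150 sites found in DMSO alone and 8783 found in AI-10-49 alone. Absence from a list means that no interval passed the caller's threshold there, and not that RUNX1 was absent. The overlap leaned on the length of the AI-10-49 list: with that list cut to its 1701 highest sites by −log10 p, 48.3% of DMSO sites had a partner. It also leaned on the 1 bp rule, since 49.5% of DMSO sites had a partner when 50% of each interval had to overlap.

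The 5 strongest DMSO sites all had a partner, at varied ranks in the AI-10-49 list. The site with the highest −log10 q in DMSO lay in band 15q23, at chr15:70784964-70785591 (hg19), and carried 107 summit fragments in DMSO and 136 in AI-10-49, where it ranked 208 by −log10 p. The second, in 11q13.3 at chr11:70244536-70245082, carried 135 and 158 fragments and ranked 509 after AI-10-49. The third, in 11p11.2 at chr11:47429662-47430073, carried 94 and 174 fragments and moved to rank 48. The fourth, in 20q11.21 at chr20:31260915-31261492, had the most fragments of any DMSO site, 140, and 232 after AI-10-49, at rank 12. The fifth, in 20q13.12 at chr20:42578704-42579155, had 100 and 137 fragments and rank 304. All 5 were higher per M reads after AI-10-49, by ratios of 1.25 to 1.98, which lie below the median ratio of 2.1 over all 1551 pairs. The 5 were chosen by their −log10 q in DMSO, and the DMSO height is the denominator of the ratio. Such a choice by itself favours low ratios, so that the difference from the median is not read as a trait of strong sites.

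The summits of paired sites stayed close to each other. The median distance between the DMSO summit and the AI-10-49 summit was 29 bp, with quartiles of 13 and 55 bp. In 1109 of 1551 pairs, 71.5% (69.2 to 73.7%), the summits lay within 50 bp, and in 91.0% within 100 bp. The DMSO summit fell inside the AI-10-49 interval in 99% of pairs, and the AI-10-49 summit fell inside the DMSO interval in 92.7%. The shift had no side: 751 summits lay to the left of the DMSO summit, 780 to the right and 20 on the same base, and the signed median was 1 bp. In H3K27ac, treated the same way and called per sample by the same tool, 47607 pairs had a median shift of 79 bp, with 38.3% within 50 bp. Of the H3K27ac pairs, 29671 matched 1 site to 1 site, against 1515 of 1551 for RUNX1. RUNX1 pairs that did not match in this way had a median shift of 77 bp, against 29 bp for those that did. The part of such pairs in the difference between the antibodies was not tested. The H3K27ac intervals were also longer, with a median of 551 bp in DMSO against 206 bp for RUNX1, so that a summit had more room to move.

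**Figure D1:**
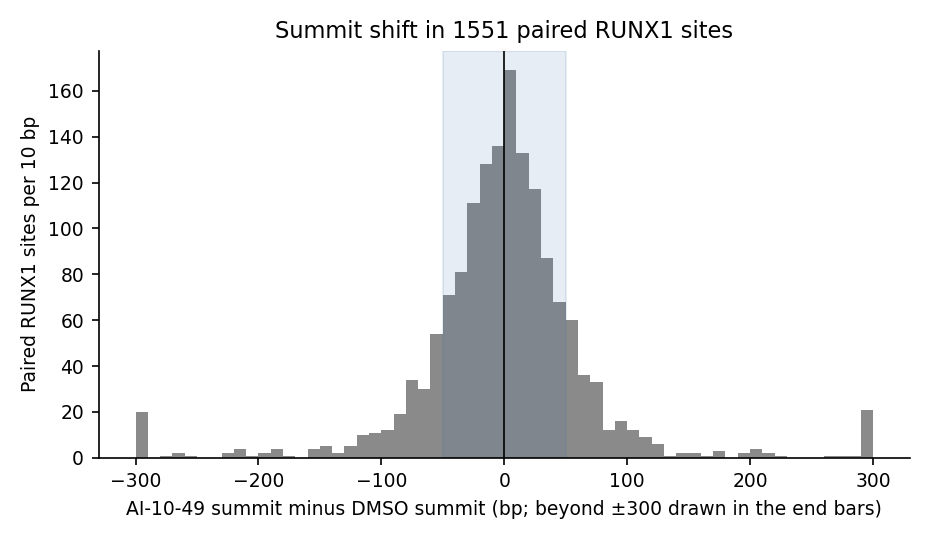
Signed distance in bp from the DMSO summit to the AI-10-49 summit (x axis) in 1551 paired RUNX1 sites, as the number of pairs per 10 bp (y axis), with the range of 50 bp on either side shaded. The bars are centred on 0, with 71.5% of the pairs in the shaded range and 48 pairs beyond 250 bp on either side.

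The shift changed little with the height of the site and more with its width. With the pairs sorted by DMSO summit fragments into 4 groups of like size, from lowest to highest, the median shift was 31, 32, 31 and 24 bp. Among pairs whose AI-10-49 interval was under 500 bp the median shift was 27 bp (987 pairs), and at 1000 bp or wider it was 51.5 bp (64 pairs). Shifts over 500 bp were found in 10 pairs, all with an AI-10-49 interval of 1000 bp or more. The intervals of a pair had to overlap and each summit lies within its interval, so that their widths cap the shift. Small shifts, and larger ones at wide intervals, were thus partly set by the pairing rule. Of the 48 pairs with a shift over 250 bp, 17 were among the 36 pairs that did not match 1 site to 1 site.

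Among single pairs with a DMSO −log10 q of at least 10, the largest shift was 1109 bp, in 22q13.33. There the DMSO interval chr22:50628749-50629077 was 329 bp wide with 41 fragments at its summit, and the AI-10-49 interval chr22:50628571-50630226 was 1656 bp wide with 77. The next, in 3q29, shifted by 559 bp as its interval went from 400 bp at chr3:193852169-193852568 to 1036 bp. In 1p36.11 a 214 bp interval at chr1:26606887-26607100 became one of 897 bp, and the summit lay 470 bp to the left. A second pair of 1p36.11, at chr1:26868416-26868979, went from 564 to 1007 bp with a shift of 379 bp, and a pair of 4p16.1, at chr4:10182341-10182542, from 202 to 955 bp with 391 bp. In each of these 5 pairs the whole DMSO interval lay inside the AI-10-49 interval, and all but 1 of the AI-10-49 summits lay outside the DMSO interval.

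Paired sites were wider after AI-10-49 in nearly every case. The median width went from 210 bp in DMSO to 418 bp in AI-10-49, and the median ratio within pairs was 1.88, with quartiles of 1.43 and 2.51. The AI-10-49 interval was wider in 1475 of 1551 pairs, 95.1% (93.9 to 96.1%), and narrower in 75. It was at least 1.5 times wider in 70.1% of pairs and at least 1.5 times narrower in 0.451%, which was 7 pairs. The added width was spread over both sides, with a median of 91 bp on the left and 90 bp on the right, and 1266 DMSO intervals, 81.6%, lay wholly inside the AI-10-49 interval. The reverse, an AI-10-49 interval inside the DMSO one, was found in 22 pairs. In the H3K27ac lists the median width ratio in pairs was 0.965, and 46.0% of pairs were wider after AI-10-49. Of those 47607 pairs, 29671 matched 1 site to 1 site, and the part of the others in these values was not tested.

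Paired sites were also higher after AI-10-49, and width moved with height. Heights here were not divided by the ratio of the shortest intervals, and the part of read extension in them was not tested. Summit fragments per M reads were at least 1.5 times higher in 1179 pairs, 76% of all, and at least 1.5 times lower in 7, 0.451%. Where the AI-10-49 summit was lower than the DMSO summit (96 pairs), the median width ratio was 1.12. With a height ratio of 1 to 2 (630 pairs) it was 1.59, with 2 to 4 (656 pairs) 2.11, and with 4 or more (169 pairs) 2.82. Among 153 pairs whose heights lay within 1.2 times of each other, a group chosen after the data were seen, the median width ratio was 1.28 (quartiles 1.03 and 1.58) and 121 pairs, 79.1%, were wider. For comparison, the ratio of the shortest intervals was 1.13, and 90.3% of all pairs exceeded it.

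The same held over all sites of each list at like height. In the class of 0.6 to 0.8 summit fragments per M reads, the median width was 182 bp over 416 DMSO sites and 214 bp over 2292 AI-10-49 sites. In the class of 1.5 to 2 it was 288 bp (154 sites) and 382 bp (1193 sites). Over 7 classes of height the ratio of the medians ranged from 1.12 to 1.33. AI-10-49 sites with a DMSO partner and those without were of like width at like height, for example 380 bp and 385 bp in the class of 1.5 to 2. Intervals of 500 bp or more made up 1.70% of the DMSO list (29 sites) and 13.9% of the AI-10-49 list (1437 sites). Intervals of 1000 bp or more numbered 0 in DMSO, which allows up to 0.217%, and 89 in AI-10-49.

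**Figure D2:**
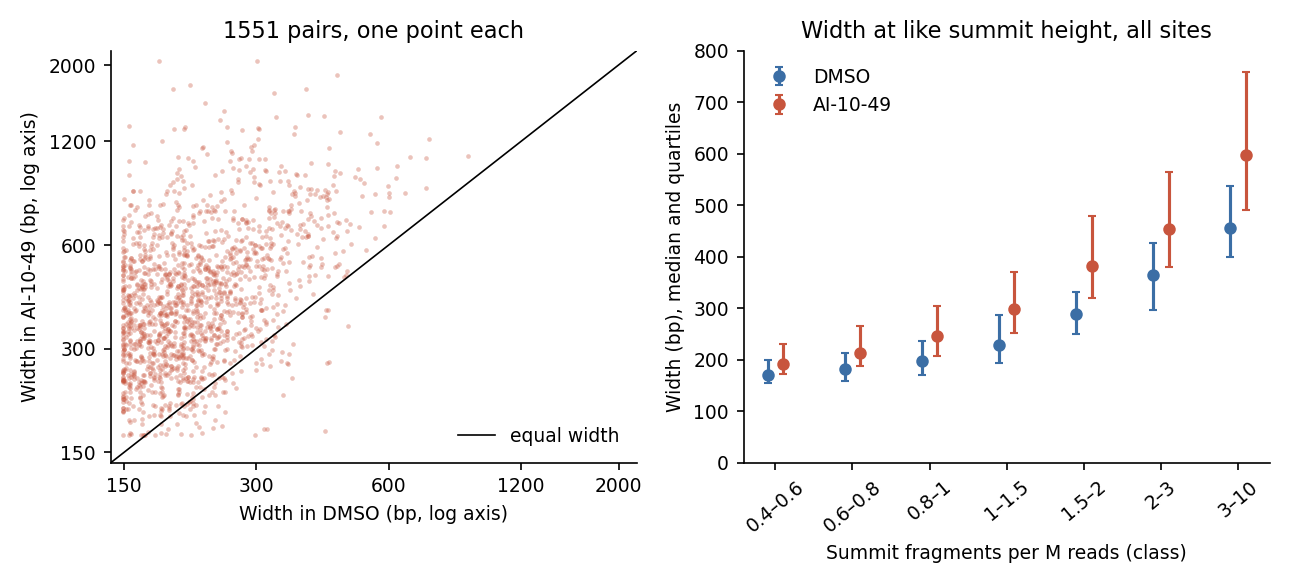
Left, width in bp of each of 1551 paired RUNX1 sites in DMSO (x, log axis) and AI-10-49 (y, log axis), with the line of equal width. Right, median width with quartiles (y, bp) by class of summit fragments per M reads (x) over all sites of each list. On the left 1475 points lie above the line, and on the right the AI-10-49 median lies above the DMSO median in each of the 7 classes.

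The 5 largest gains of width among single pairs, with joined or split sites left out, were of 1213 to 1533 bp. In 7p22.3 an interval of 212 bp with 24 fragments, chr7:2569428-2569639, became one of 1745 bp with 91 fragments, chr7:2568748-2570492. In 11q13.3 the sixth-ranked DMSO site, chr11:69064664-69065120, went from 457 to 1867 bp and from 127 to 250 fragments, while its summit moved by 51 bp. In 19p13.13 a site at chr19:13957447-13957676 went from 230 to 1554 bp with a summit shift of 5 bp, and in 8q22.3 a site went from 254 to 1467 bp with a shift of 3 bp. In 11q13.3, 19p13.13 and 8q22.3 the extension was lopsided, with 1174, 1165 and 1027 bp added on the right and 236, 159 and 186 bp on the left. The remaining gain of the 5 was at the 22q13.33 site with the largest shift. The largest losses were smaller in size: 258 bp in 19p13.11, where chr19:17007700-17008130 went from 431 to 173 bp and from 32 to 18 fragments, and 138 to 165 bp in 7q22.1, 8q24.3, 9q34.3 and 19q13.12.

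Neighbouring DMSO sites were joined into a single interval after AI-10-49 more often than they were split. In 17 places 1 AI-10-49 interval overlapped 2 DMSO sites, and in 2 places 1 DMSO site overlapped 2 AI-10-49 sites. No interval of either list overlapped 3 or more of the other. The gap between the 2 DMSO sites ranged from 54 to 871 bp with a median of 223 bp, and the joined interval was 665 to 2057 bp wide. Its summit lay nearer the DMSO site with the higher −log10 p in 13 of the 17 places. In 4 places it lay nearer the other site, among them 21q22.2, the band of ERG, an ETS factor of blood stem cells: DMSO sites of 215 and 154 bp with 43 and 32 fragments lay under 1 interval of 1055 bp with 162 fragments, chr21:40356927-40357981. The 2 split sites lay in 7p22.3 and 7q22.1. The AI-10-49 intervals there were 74 and 70 bp apart.

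Sites lay closer together after AI-10-49. The median distance from a site to the next one of its list was 154 kb in DMSO and 22 kb in AI-10-49. A list with 6.07 times as many sites is more densely packed by its number alone. Cut to its 1701 highest sites, the AI-10-49 list had a median distance of 112 kb, against 154 kb in DMSO. Within 1 kb of the next site lay 4% of DMSO sites, 13.5% of AI-10-49 sites and 5.17% of the cut AI-10-49 list.

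Clusters were defined as 2 or more sites of a list with gaps of at most the stitching distance, a length between 12 and 13 kb that is commonly used to join enhancers. DMSO had 118 clusters with 261 sites, 15.3% (13.7 to 17.2%) of its list. AI-10-49 had 1733 clusters with 4225 sites, 40.9% (39.99 to 41.9%), and the list cut to the DMSO length had 166 with 360 sites, 21.16% (19.2 to 23.2%). Of clusters with 5 or more sites, DMSO had 1, AI-10-49 66 and the cut list 1. The largest had 5, 9 and 6 sites. Outside clusters stood 1440 DMSO sites and 6094 of AI-10-49.

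**Figure D3:**
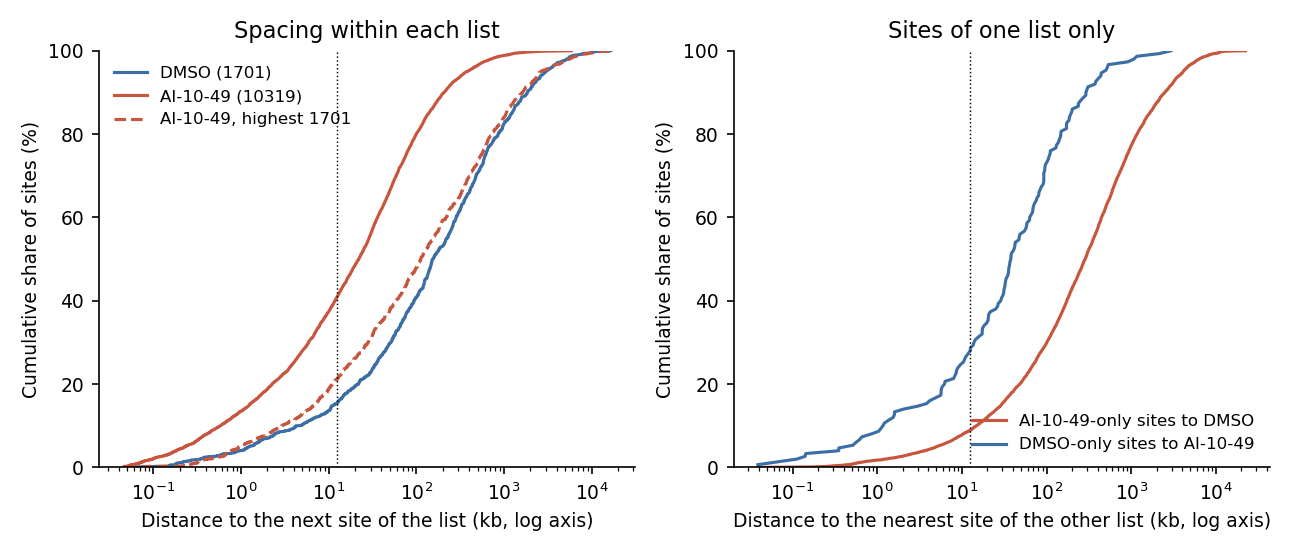
Cumulative share of sites (y, %) by distance in kb on a log axis, with a dotted line at the stitching distance. Left, distance to the next site of the same list for DMSO, AI-10-49 and the 1701 highest AI-10-49 sites, with medians of 154, 22 and 112 kb. Right, distance to the nearest site of the other list for sites of 1 list only, with medians of 286 kb (AI-10-49) and 37.9 kb (DMSO).

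AI-10-49 clusters were of 2 kinds, those around a DMSO site and those with none. Of the 1733 clusters, 1172, 67.6%, held no DMSO site in their span, and these had 2715 sites. In 519 clusters sites with and without a DMSO partner stood together. In 428 of these, 82.5%, the strongest site was one that DMSO also had. Where 1 shared site stood beside 1 site of AI-10-49 alone (305 clusters), the shared site was the stronger in 250. With 1 shared site among 3 (96 clusters) it was the strongest in 75, and with 1 among 4 or more (50 clusters) in 39. Over the whole AI-10-49 list, shared sites had a median −log10 q of 40.4 and the others 11.7. No like count outside clusters was made, so that these counts are not read as a trait of clusters. The share of clusters holding a shared site went from 13.9% of single sites to 27.3, 39.4, 52.0 and 60.6% of clusters of 2, 3, 4 and 5 or more. Per site the rise was smaller, from 13.9% of single sites to 19.2% of sites in clusters of 5 or more.

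The AI-10-49 cluster with most sites lay in 8q24.3, with 9 sites over 24.8 kb. In 4 of them a DMSO partner was found, and the heights went from 62, 57, 61 and 85 fragments in DMSO to 74, 101, 167 and 223. The 5 others had 36 to 105 fragments. In 1q22, chr1:156066667-156097350, 7 sites spanned 30.7 kb, and the 3 shared ones at its ends went from 59, 29 and 66 fragments to 155, 170 and 150. The 4 sites between them, which DMSO lacked, had 58, 64, 17 and 19 fragments. The shared sites were thus the highest of that cluster in AI-10-49.

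In 17q22, the band of MPO, which codes for the granule enzyme myeloperoxidase of myeloid cells, 8 sites spanned chr17:56406972-56429885. The cluster was placed in the band and not at a gene. Only the last had a DMSO partner, with 24 fragments over 151 bp in DMSO and 66 over 556 bp in AI-10-49. The 7 others had 27 to 45 fragments and lay 7.60 to 22.4 kb from the DMSO interval. Clusters of 8 sites were also found in 17q25.3, chr17:80158772-80199829, with 3 shared sites, and in 2p22.1, chr2:38829890-38879914, with 2. In 17q25.3 the second shared site had 37 fragments in DMSO and 38 in AI-10-49 and went from 345 to 221 bp, against the trend of the pairs.

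Among clusters with no DMSO site, that of 12q24.12, chr12:111866498-111876697, had 6 sites within 10.2 kb. They carried 86, 87, 42, 56, 129 and 76 fragments, or 1.33 to 4.09 per M reads, against a median of 0.918 over the DMSO list. The nearest DMSO site lay 18.6 kb away. In 18q21.1, chr18:46444016-46478716, 6 sites had 30 to 139 fragments, and a DMSO site lay 20.4 kb away. In 19q13.42, chr19:54876485-54901448, 6 sites had 17 to 62 fragments at 162 kb from DMSO. Clusters of 5 sites lay in 1p36.22, chr1:12213282-12244391, at 412 kb from a DMSO site, and in 14q24.3, chr14:74208237-74227191, at 1222 kb. Heights in these 5 clusters lay within the range of the DMSO list, whose highest site had 4.14 fragments per M reads, with the 139 fragments in 18q21.1, 4.41 per M reads, as the exception.

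DMSO had 1 cluster of 5 sites and 4 of 4 sites, and the 3 named here, with ties broken by summed −log10 p, had all their sites paired after AI-10-49. The only one of 5 sites lay in 14q32.33, chr14:106345573-106374701, and all its 5 sites had a partner. Their heights went from 33, 71, 40, 55 and 22 fragments to 68, 97, 116, 42 and 61, so that 4 were higher per M reads and the fourth was lower, at a ratio of 0.818. The fourth was also narrower, 323 bp in DMSO and 267 bp in AI-10-49. In 22q13.1, chr22:38029168-38035523, 4 sites went from 42, 95, 64 and 29 to 30, 205, 96 and 29 fragments. In 20q11.21, chr20:31253269-31269477, the middle pair of 4 sites, 223 bp apart in DMSO, was joined into 1 interval of 1417 bp, and the last site went from 32 to 168 fragments.

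**Figure D4:**
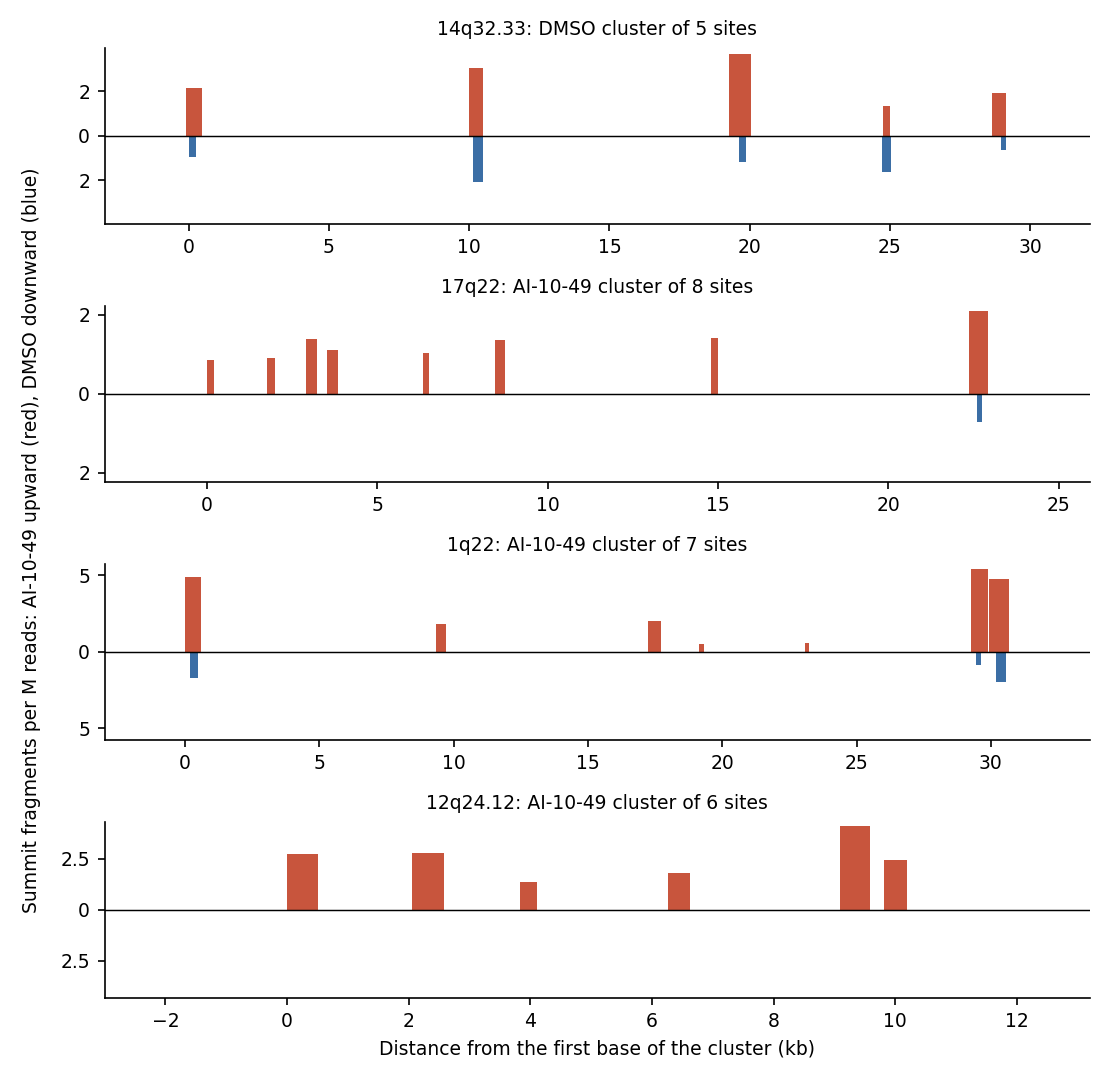
RUNX1 sites in 4 clusters, drawn by distance in kb from the first base of the cluster (x) and summit fragments per M reads (y, AI-10-49 upward in red, DMSO downward in blue), with each bar as wide as its interval or at least a thin line. All 5 DMSO sites of 14q32.33 have an AI-10-49 site, 1 of 8 AI-10-49 sites of 17q22 and 3 of 7 of 1q22 have a DMSO site, and 12q24.12 has no DMSO site.

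Few sites found after AI-10-49 alone lay close to a DMSO site. The median distance from the 8783 AI-10-49-only sites to the nearest DMSO site was 286 kb, with quartiles of 71.5 and 891 kb. For scale, DMSO sites lay a median of 154 kb from the next, and stretches between them had a median of 494 kb. With so sparse a DMSO list, these distances are not read as a trait of the AI-10-49-only sites. Within 1 kb lay 153 of them, 1.74%, within the stitching distance 781, 8.89% (8.305 to 9.51%), and within 100 kb 29.9%. Over 1 Mb away lay 2001, 22.8%, and 1 more was on a chromosome with no DMSO site. Read from DMSO, 624 of 1701 sites, 36.7% (34.4 to 39.0%), had an AI-10-49-only site within the stitching distance, 183 had at least 2 and 64 at least 3, with 5 as the most. The 150 DMSO-only sites lay nearer to the denser AI-10-49 list, at a median of 37.9 kb.

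Sites far from a DMSO site were slightly lower. Within 1 kb of a DMSO site, the median height of AI-10-49-only sites was 1.05 fragments per M reads (153 sites), at 1 to 5 kb it was 1.14 (286 sites), at 100 to 500 kb it was 0.984 (2856 sites), and beyond 1 Mb 0.888 (2001 sites). The quartiles of the 1 to 5 kb class and of the last class overlapped, at 0.825 to 1.76 and 0.698 to 1.24. Median width over the same classes was 279, 300.5, 272 and 267 bp. Median fold enrichment over the local background, as the authors' caller gave it, was 6.33, 6.82, 6.22 and 6.46, and the median background was 3.55, 3.72, 3.21 and 3 fragments. The height was thus greatest at 1 to 5 kb and not in the nearest class, and the fold enrichment showed no order by distance.

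The top of the AI-10-49 list was rich in sites with a DMSO partner, though such sites were found at all ranks. Of its 100 highest sites by −log10 p, 94 overlapped a DMSO site, 94% (87.4 to 97.8%). At ranks 501 to 1000 the share was 48% (43.5 to 52.5%), at 1702 to 3000 19.1%, and at 5001 to 10319 4.32%. The AI-10-49-only sites were nonetheless not all low. Of the 8783, 57.0% were higher per M reads than the median DMSO site, or 44.7% when the height was also divided by the ratio of the shortest intervals. Above the highest DMSO site stood 37 of them, or 11 after that division. Median height was 2.03 fragments per M reads for the shared sites of AI-10-49 and 0.984 for the others.

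**Figure D5:**
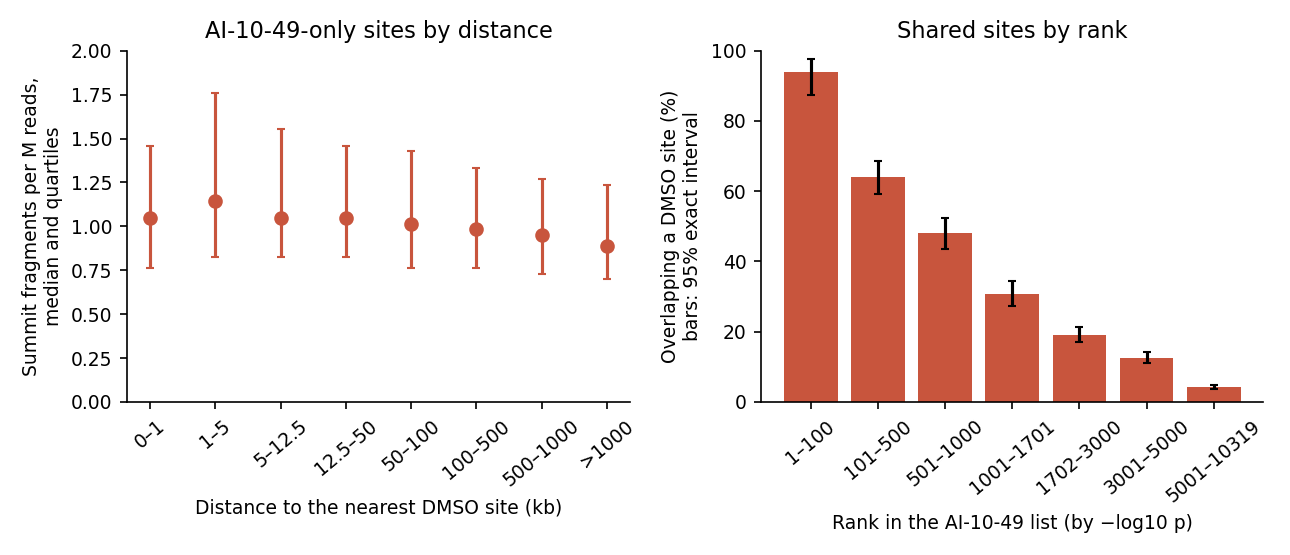
Left, summit fragments per M reads (y, median with quartiles) of the AI-10-49-only sites, by class of distance to it in kb (x). Right, share of AI-10-49 sites overlapping a DMSO site (y, %, with exact 95% intervals) by rank in the list (x), from 94% in ranks 1 to 100 down to 4.32% in ranks 5001 to 10319.

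Nearly all long stretches without a DMSO site held AI-10-49 sites. Of 607 stretches of more than 1 Mb between neighbouring DMSO sites, 595 held at least 1 AI-10-49 site. Over stretches of any length it was 1316 of 1678. A longer stretch has more room for a site of the denser list, so that these counts are not read as a trait of long stretches. The most AI-10-49 sites in 1 stretch were 42, in the 16.1 Mb from 2q24.1 to 2q31.1, followed by 39 in 15.0 Mb from 1p21.3 to 1p13.3. The farthest sites with −log10 q of at least 20 lay on the long arm of chromosome 9. The first, chr9:71643749-71644016 in 9q21.11, had 42 fragments. In 9q21.12 3 sites followed, of which chr9:72695490-72695803 had 47 fragments and its neighbour, 0.194 kb away, had 34. The last, chr9:77643313-77643579 in 9q21.13, had 35 fragments.

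The 150 sites found in DMSO alone were for the most part shorter and lower than the rest of the list. Their median width was 176.5 bp against 210 bp for DMSO sites with a partner, and their median summit fragments 25 against 31. They reached up to 522 bp and 65 fragments, and 10 of them stood in the top 25% of the DMSO list by −log10 p. Of them 13.3% had the shortest width the list allows, against 4.64% of the others. The 3 farthest from an AI-10-49 site lay in 5p14.3, 7q11.21 and 18q12.1, with 13, 25 and 12 fragments. The nearest, chr19:11708669-11708817 in 19p13.2, had 27 fragments and lay 39 bp from an AI-10-49 interval. Only 5 of the 150 lay within 250 bp of one.

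All chromosomes with sites in both lists had more sites after AI-10-49. The ratio of sites ran from 4.11 on chromosome 20 and 4.12 on chromosome 22 to 8.92 on chromosome 12, with a median of 5.93 over the 22 autosomes, and was 8.92 on X. Chromosome 12 had 61 DMSO and 544 AI-10-49 sites, and chromosome 20 had 87 and 358. The density of DMSO sites was highest on chromosome 19, at 17.2 per 10 Mb, where AI-10-49 also had its highest, 105.5 per 10 Mb. The median width ratio in pairs was above 1.5 on each of these 23 chromosomes, from 1.53 on 9 to 2.22 on 21, and the median summit shift lay between 19 and 36 bp.

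A set of 25 cytogenetic bands that hold genes of blood development was read as bands. Sites were not assigned to genes, and a band holds many genes. Every one of the 25 bands had more sites in AI-10-49, with 119 DMSO and 551 AI-10-49 sites in all, and 105 of their 109 pairs were wider, against 95.1% of all pairs. In 20 bands AI-10-49 sites formed a cluster, and in 15 one of 3 or more. The same counts were not made for other bands, and 40.9% of all AI-10-49 sites stood in clusters. These counts of bands thus do not set the 25 bands apart. The increase in these bands, 4.63 times, was below that of the whole lists, 6.07.

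The band of RUNX1 itself, 21q22.12, had 4 DMSO and 20 AI-10-49 sites. The 4 DMSO sites all had partners. The site chr21:36180632-36180898 had 48 fragments over 267 bp in DMSO and 72 over 278 bp in AI-10-49. The site chr21:36237869-36238176 had 62 over 308 bp and 81 over 587 bp. The site chr21:36399074-36399277 changed most, from 38 over 204 bp to 190 over 919 bp, with a summit shift of 26 bp to the left. The last, chr21:36421409-36421639, had 31 over 231 bp and 59 over 753 bp, and its summit lay 120 bp to the right. Of the 20 AI-10-49 sites 17 stood in clusters. One cluster of 4 sites had no DMSO member and ran from chr21:36260419-36260620 to chr21:36262027-36262513, with 28, 53, 27 and 37 fragments. Another of 3 held the site chr21:36280580-36281315, with 108 fragments the second highest of the band and 42.4 kb from the nearest DMSO site.

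The bands of the partner subunit and its fusion partner changed in the same direction. In 16q22.1, the band of CBFB, 7 DMSO sites stood against 25 in AI-10-49, and 6 of 7 pairs were wider. The largest change there was at chr16:66907137-66907490, with 37 fragments in DMSO and 162 in AI-10-49. The site chr16:67062690-67062973 went from 21 to 53 fragments with a summit shift of 205 bp. In 16p13.11, the band of MYH11, 2 DMSO and 11 AI-10-49 sites were found, and the pairs went from 38 to 99 and from 55 to 81 fragments. The bands of the paralogues RUNX2 (6p21.1) and RUNX3 (1p36.11) had 12 and 16 DMSO sites, and 49 and 63 in AI-10-49. In 6p21.1 one site was narrower, chr6:43891995-43892314, from 320 to 289 bp, with 48 and 46 fragments.

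Bands of myeloid and stem cell regulators had the same pattern with different starting points. In 11p13, the band of LMO2, an adaptor of blood stem cell factors, sites went from 10 to 41, of which 25 stood in clusters, and one cluster held 7. Its highest site, chr11:35057564-35057741, went from 20 fragments over 178 bp to 154 over 601 bp, the largest height ratio among the pairs of the 25 bands, 8.25. In 16q24.1, the band of IRF8, a factor of monocytes, sites went from 5 to 26, and 18 stood in clusters. The site chr16:85646994-85647360 there went from 33 fragments over 367 bp to 63 over 1322 bp. In 3q21.3, the band of the stem cell factor GATA2, 14 DMSO and 34 AI-10-49 sites were found, and 12 of 12 pairs were wider. In 19q13.11, the band of the granulocyte factor CEBPA, sites went from 5 to 19, and the pair chr19:33777958-33778269 was slightly narrower, 312 and 306 bp, at 29 and 58 fragments.

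Of the 25 bands, 20 had a DMSO site and the rest had none. Bands outside this set were not counted in this way, so that the empty bands are not read as unusual. The band of CSF1R (5q32), the receptor of macrophage colony-stimulating factor, had 0 DMSO and 19 AI-10-49 sites, that of the repressor GFI1 (1p22.1) 0 and 14, and that of TAL1 (1p33), a stem cell factor, 0 and 6. The bands of IKZF1 (7p12.2) and ZEB2 (2q22.3) had 0 and 5 each. The 5 sites of 7p12.2 included a cluster of 4. The band of CDK6 (7q21.2), a kinase of the cell cycle, had 1 DMSO site, which had no partner, and 6 AI-10-49 sites outside clusters with at most 27 fragments.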

How the data were processed

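Chromatin immunoprecipitation with sequencing (ChIP-seq) of RUNX1 was analysed in 2 libraries of ME-1 cells, 1 a condition. Per the submitters' processing notes, the build was hg19, and the tools named are MACS2 2.1.0, Picard 1.96, SAMtools 1.3, Bowtie2 2.1.0 and CASAVA 1.4. Their roles, the input used and the threshold are not given in the sources used here. The deposited lists give interval positions, the fold enrichment at the summit (a ratio over local background), −log10 p and −log10 q values, and a deposited score that was not used.

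Summit fragments and depth were recovered from the authors' fold and −log10 p, with the Poisson model of MACS2, a genome size of 2700000000 assumed and a tolerance of 0.003 on −log10 p. They are estimates that rest on this model, and 100% of sites were solved. Sites were paired by 1 bp of overlap. A DMSO site with several partners took the one with the highest −log10 p. Distances were edge to edge. Scripts in Python 3.11.15 (numpy 2.4.6, pandas 2.3.3, scipy 1.17.1) were tested on simulated lists and checked against bedtools 2.31.1. Bands were taken from circlize 0.4.16. With 1 library a condition no test was made.

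The named sites followed fixed rules: the 5 highest DMSO sites by −log10 q, the 5 largest gains and losses of width and shifts among single pairs, the largest clusters (5 of AI-10-49, 5 without a DMSO site, 3 of DMSO, by number of sites with ties broken by summed −log10 p), the farthest sites, and the bands of 25 genes. The sites and lists were chosen with earlier results of these data known. Sequence motifs and gene annotation at the sites were not analysed here. Alternatives were other overlap rules, thresholds of 5 and 10 on −log10 q, other stitching distances and a cut list.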

Additional observations from a re-analysis of the deposited data

How the results depend on the processing

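No paired analysis was possible because only 1 library stood on each side. Of 62 alternatives over 14 results, 35 were counted as the same and 27 as moved. A share counted as moved when it left its interval. A median counted as moved when it changed by more than 1.5 times, whatever its spread. This limit is wide. The median width ratio of 1.28 in pairs within 1.2 times in height counted as the same as 1.88. So did a median distance to the next DMSO site of 201727 bp, at −log10 q of at least 5, against 153925 bp. With 50% of both intervals overlapping, 49.5% of DMSO sites and 8.16% of AI-10-49 sites had a partner, 71.9% of DMSO intervals were contained, 91.9% of pairs were wider and 77.2% had summits within 50 bp. With summits within 250 bp as the rule, 88.4% of DMSO sites had a partner. With the AI-10-49 list cut to the DMSO length, 48.3% of DMSO sites and 47.4% of AI-10-49 sites had a partner, the median distance to the next AI-10-49 site was 112390 bp and 21.16% of its sites were in clusters. With −log10 q of at least 10 in both lists, 11.7% of AI-10-49 sites had a partner, 77.8% of pairs had summits within 50 bp, 85.8% of DMSO intervals were contained, the median distance to the next site was 342805 bp in DMSO and 33050 bp in AI-10-49, and 12.1% and 33.5% of sites were in clusters. At −log10 q of at least 5, 39.2% of AI-10-49 sites were in clusters. With stitching distances of 5, 25 and 50 kb the share in clusters was 10.2, 21.22 and 29.7% in DMSO and 28.0, 52.2 and 66.5% in AI-10-49. With the shortest interval of each list taken off the widths, the median ratio was 3.52 and 92.0% of pairs were wider. Among pairs within 1.2 times in height, chosen after seeing the data, 79.1% were wider. Beyond what fewer sites or another rule does by construction, the cause was not tested. Wherever an alternative gave these measures, most pairs were wider in AI-10-49, and AI-10-49 sites were closer together and more often in clusters than DMSO sites. The alternatives for RUNX motifs and for promoter extent were not run. Depth limits the low sites: the lists reach down to 11 summit fragments in DMSO and 12 in AI-10-49.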
